A study of Mus musculus with 4 samples.

Results

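The striated muscle myosin chains comprise 10 genes, namely the heavy chains Myh1, Myh2, Myh3, Myh4, Myh7 and Myh8 and the light chains Myl1, Myl2, Myl3 and Mylpf, out of 18193 genes with a named probe set. They were taken by gene symbol, and 15 of the 45101 probe sets on the array are annotated to one of these symbols alone. FoxO6 is a forkhead transcription factor, and RNA from FoxO6-/- and wild type (WT) mice was hybridized to 4 Affymetrix arrays, of which each stands for 1 genotype in 1 tissue, either mandible with maxilla or brain. All arrays are labelled as postnatal day 0. The paper's text describes the mandible and maxilla tissue as late embryonic. FoxO6-/- mice carry a LacZ and neomycin cassette in place of the FoxO6 coding exons in every cell, and WT mice carry no altered allele. The mandible and maxilla arrays hold pooled RNA, and mutant animals could be null or heterozygous according to the methods, which limits what the label FoxO6-/- stands for. Since no probe set is named Foxo6, loss of its RNA could not be used to check the labels. There are no replicate arrays, so a difference between genotypes compares 1 array with another and carries no SD.

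Myosin of striated muscle is a hexamer of heavy chains, which hold the motor, and light chains, which wrap around the neck of the heavy chain. Each neck carries an essential and a regulatory light chain. Muscle fibres exchange their heavy chains as they mature: the embryonic form (Myh3) and the perinatal form (Myh8) dominate before and around birth and later give way to the adult fast forms IIa (Myh2), IIx (Myh1) and IIb (Myh4) or, in slow fibres, to the slow form (Myh7). Myl1 and Mylpf are the essential and regulatory light chains of fast fibres, while Myl3 and Myl2 are those of slow fibres and, like Myh7, also of the heart ventricle.

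Heavy chain genes Myh3, Myh2, Myh1, Myh4 and Myh8 follow one another in this order in a cluster on chromosome 11, all on the plus strand. Their promoters are shown because these clustered genes differed in how their signals varied over the arrays. Each sequence runs from 250 bases before to 50 bases after the gene start and comes from RefSeq, build GRCm38.p6. Capitals mark the longest run that Myh2, Myh1, Myh4 and Myh8 share, TTCTAATTATATCC, and the longest run that Myh1, Myh4 and Myh8 share, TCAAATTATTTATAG.
Myh3, chr11:67078050-67078349: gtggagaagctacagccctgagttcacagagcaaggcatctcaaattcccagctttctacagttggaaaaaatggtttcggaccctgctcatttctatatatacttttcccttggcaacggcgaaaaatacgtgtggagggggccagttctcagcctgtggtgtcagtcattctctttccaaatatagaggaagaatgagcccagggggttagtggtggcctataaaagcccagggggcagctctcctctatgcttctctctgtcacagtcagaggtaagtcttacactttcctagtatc
Myh2, chr11:67170777-67171076: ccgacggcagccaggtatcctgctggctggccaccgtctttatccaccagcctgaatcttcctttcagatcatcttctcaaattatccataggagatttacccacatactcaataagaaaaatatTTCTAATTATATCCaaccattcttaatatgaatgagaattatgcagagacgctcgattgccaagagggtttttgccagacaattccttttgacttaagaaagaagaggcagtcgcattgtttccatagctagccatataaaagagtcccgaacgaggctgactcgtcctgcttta
Myh1, chr11:67199852-67200151: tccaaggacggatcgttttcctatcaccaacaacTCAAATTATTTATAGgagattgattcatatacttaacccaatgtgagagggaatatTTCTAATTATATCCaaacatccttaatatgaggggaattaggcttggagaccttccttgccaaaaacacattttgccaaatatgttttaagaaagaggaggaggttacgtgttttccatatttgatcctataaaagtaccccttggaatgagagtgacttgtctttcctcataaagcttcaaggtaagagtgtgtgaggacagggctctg
Myh4, chr11:67237562-67237861: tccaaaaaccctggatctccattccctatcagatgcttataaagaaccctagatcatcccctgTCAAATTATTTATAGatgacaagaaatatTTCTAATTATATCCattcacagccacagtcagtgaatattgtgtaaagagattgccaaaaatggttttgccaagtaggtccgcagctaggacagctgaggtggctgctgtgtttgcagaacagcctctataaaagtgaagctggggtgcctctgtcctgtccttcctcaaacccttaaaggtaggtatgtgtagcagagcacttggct
Myh8, chr11:67276874-67277173: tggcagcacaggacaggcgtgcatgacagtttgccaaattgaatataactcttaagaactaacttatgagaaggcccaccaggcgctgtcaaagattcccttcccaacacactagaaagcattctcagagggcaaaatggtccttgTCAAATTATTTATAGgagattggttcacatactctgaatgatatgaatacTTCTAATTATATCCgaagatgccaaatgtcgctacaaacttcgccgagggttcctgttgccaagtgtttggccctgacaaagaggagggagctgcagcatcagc

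The run TTCTAATTATATCC, searched on both strands, was found in 4 of 32851 promoters in the table, which are those of Myh1, Myh2, Myh4 and Myh8. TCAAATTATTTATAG was found in 3 promoters, those of Myh1, Myh4 and Myh8. Since both runs were read from these very promoters, the counts describe them and test nothing. The letters of both runs were chosen after the sequences were seen. The longer run itself contains a match to the MEF2 consensus, so each of its 3 promoters holds one by construction. Of all promoters 3.19% hold such a match. The run also contains TATAAA, read on the other strand. An E-box, written CANNTG and bound by myogenic factors, was present in a promoter of 8 of the 10 genes, a share like that over the whole table, where 20265 of 27025 genes (and 72.3% of promoters) hold one. The windows of Myh1 and Myh2 lack it.

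Signals are background-corrected MAS5 values, which give the brightness of a probe set on a linear scale. A floor of 101, the median of all signals, separated low from higher values, and a gene was represented by its brightest probe set. All 10 genes reached the floor as the mean of the arrays compared, in both tissues, and 13 of the 15 probe sets did over the 4 arrays. Signals of different genes come from different probes and are not ranked against each other.

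Skeletal muscle markers were above the floor on all 4 arrays, including those labelled brain. The summed signal of 9 skeletal muscle markers, among them skeletal actin (Acta1), muscle creatine kinase (Ckm) and myogenin (Myog), was 100552 in WT and 107771 in FoxO6-/- mandible and maxilla. In brain it was 58903 in WT and 47639 in FoxO6-/-, with each of the 9 markers above the floor. The sums weigh bright genes most, and Acta1 alone had 26941 in WT and 33887 in FoxO6-/- mandible and maxilla. Of the 9 markers 4 were lower in FoxO6-/- there, with a median log2 ratio over WT of 0.02. In brain 7 were lower, with a median of -0.31. Of all genes 51.3% and 42.7% were lower, in the same order. The neuron markers summed to 35905 and 46041 on the WT and FoxO6-/- brain arrays and to 3538 and 1822 on the mandible and maxilla arrays. Of 6 heart muscle markers, Myh6, Nppa, Nppb, Myl7 and Tnni3 were below the floor on all 4 arrays. Only Tnnt2, which developing skeletal muscle also expresses, was above it, with signals from 1466 to 4574. Fewer muscle cells and less RNA per cell cannot be told apart in such bulk tissue. Signal of the 3' probe sets over that of the 5' probe sets, which rises when RNA is degraded, was 3.37 for Actb in FoxO6-/- mandible and maxilla and between 2.21 and 2.23 on the other arrays, and for Gapdh it was 1.95 against 1.44 to 1.55.

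The developmental heavy chains had their higher signals in mandible and maxilla, and as deposited their WT and FoxO6-/- signals there were nearly equal. Myh3, the embryonic heavy chain, had a signal of 17897 in WT and 17880 in FoxO6-/- mandible and maxilla, against 10227 in WT and 9244 in FoxO6-/- brain. Myh8, the perinatal heavy chain, had 28790 and 29689 in WT and FoxO6-/- mandible and maxilla, and 8894 and 7620 in brain in the same order. For both genes the mandible and maxilla arrays lay above the brain arrays without overlap, as for 36.4% of all genes.

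The fast light chains were brighter on the FoxO6-/- than on the WT mandible and maxilla array as deposited, though not after quantile normalization, and dimmer on the FoxO6-/- than on the WT brain array. Myl1 had 24250 in WT and 31468 in FoxO6-/- mandible and maxilla, and 19773 and 16744 in WT and FoxO6-/- brain. Mylpf had 27949 and 38178 in mandible and maxilla and 21861 and 17376 in brain. The highest signal of any probe set was 36963 in WT and 50639 in FoxO6-/- mandible and maxilla. In brain it was 37419 in WT and 40538 in FoxO6-/-. The part of the scale of the arrays in the light chain ratios was not tested.

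The adult fast heavy chains had a lower signal on the FoxO6-/- than on the WT array in both tissues. Myh4, the IIb chain of the fastest fibres, had 1882 in WT and 802 in FoxO6-/- mandible and maxilla, and 168 and 58.9 in WT and FoxO6-/- brain, the last of these below the floor. Myh1, the IIx chain, had 1939 and 1317 in mandible and maxilla and 1774 and 1047 in brain. Myh2, the IIa chain, had 211 and 135 in mandible and maxilla and 246 and 124 in brain. For Myh1 and Myh2 both WT signals lay above both FoxO6-/- signals. The share of all genes for which this holds was not counted, so it describes these signals only. For Myh4 both mandible and maxilla signals lay above both brain signals, as for 36.4% of all genes.

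The slow chains were brighter on the brain arrays than on the mandible and maxilla arrays of the same genotype, and also had a lower signal in FoxO6-/- in both tissues. Myh7, the slow heavy chain, had 859 in WT and 592 in FoxO6-/- mandible and maxilla, and 1469 and 1064 in WT and FoxO6-/- brain. Myl2, the slow regulatory light chain, had 266 and 100.5 in mandible and maxilla and 1140 and 468 in brain. Myl3, the slow essential light chain, had 258 and 95.9 in mandible and maxilla and 722 and 466 in brain. The FoxO6-/- mandible and maxilla signals of Myl2 and Myl3 lay just under the floor, which is 100.69 before rounding.

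**Figure D1:**
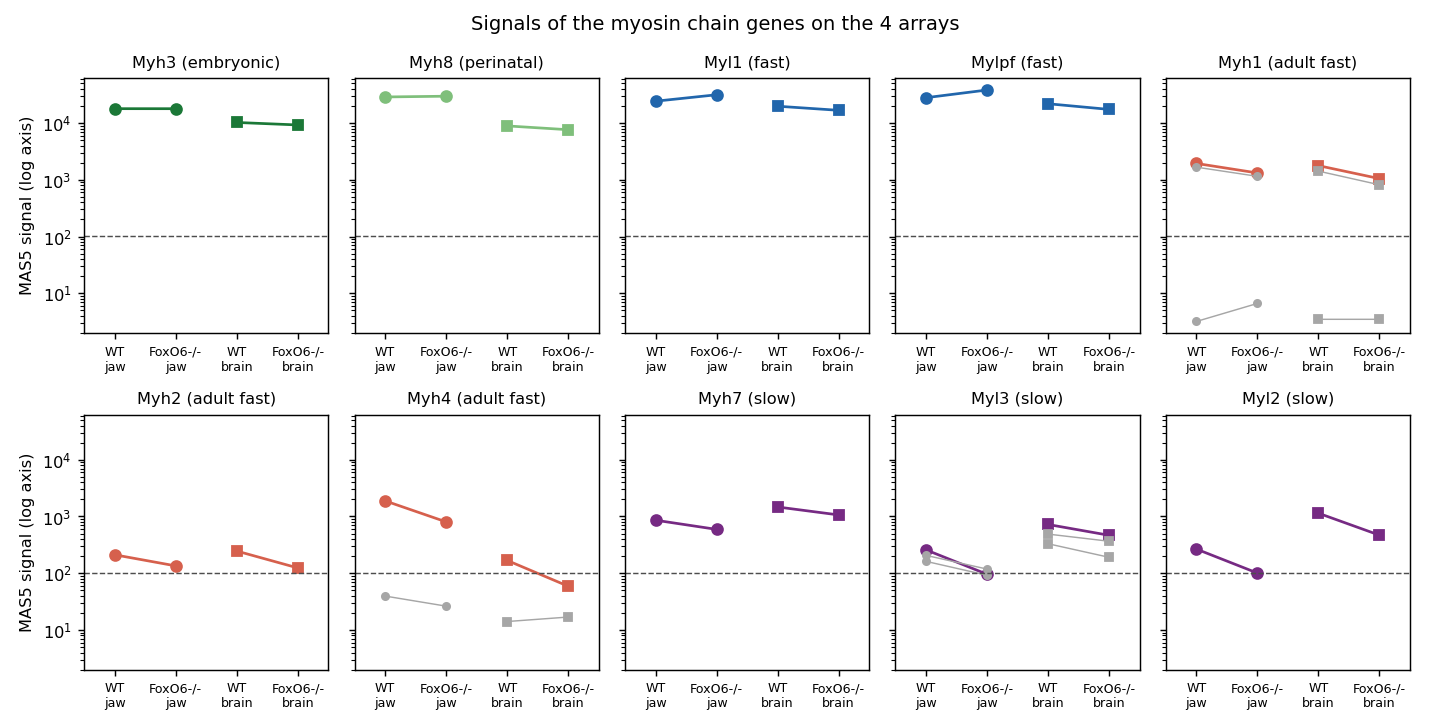
MAS5 signal on a log axis (vertical) on the 4 arrays (horizontal; jaw stands for mandible and maxilla), with 1 panel per gene. Coloured points are the brightest probe set of each gene, grey points its other probe sets, lines join the WT and the FoxO6-/- array of a tissue, and the dashed line is the floor of 101. Coloured lines of the adult fast and slow chains slope down in both tissues, whereas those of Myh3 and Myh8 are nearly level. Grey lines of Myh1 and Myh4 under the floor do not all slope down.

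Myh1, Myl3 and Myh4 had several probe sets. The brightest 2 of Myh1 gave log2 ratios of FoxO6-/- over WT of -0.56 and -0.54 in mandible and maxilla. In brain they gave -0.76 and -0.80, while the signal of the third stayed between 3.18 and 6.61, far under the floor. The 3 probe sets of Myl3 gave -1.43, -0.81 and -0.80 in mandible and maxilla and -0.63, -0.79 and -0.42 in brain. A second Myh4 probe set was below the floor on all arrays, between 14.1 and 39.5. The brightest probe sets of Myh1 and Myl3 are of the kinds that can share probes with similar transcripts, so their signals may include related heavy or light chains. The 2 probe sets shared by Myh7 and Myh6 were left out of the members. Signals of one were 192 and 165 in WT and FoxO6-/- mandible and maxilla and 495 and 308 in brain, and those of the other, from 2.76 to 22.2, were under the floor.

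To ask how the chains differ between the tissues, mandible and maxilla was compared with brain by limma over all 4 arrays, with genotype as a term and Benjamini-Hochberg adjustment over 12569 genes. By this test 3 members were higher in mandible and maxilla, where 6.48% of all genes were called, and 2 were higher in brain, where 8.73% were. Both mandible and maxilla arrays lay above both brain arrays for 5 members, where 36.4% of all genes did, and below them for 3, where 29.1% did. Myh4 was the most uneven, with a log2 difference of 3.63 ± 0.16 (SE, 2 arrays per tissue; adjusted p = 0.00857 in limma), and its signal was 11.2-fold higher in WT. In FoxO6-/- its brain signal was under the floor, and with low values raised to the floor the log2 difference was 3.24. Myh8 had 1.83 ± 0.16 (adjusted p = 0.0159 in limma) and Myh3 0.88 ± 0.15 (adjusted p = 0.0481 in limma). Myh3 missed the limit after quantile normalization (0.79), after median centring (0.76) and with every probe set fitted on its own, and with no floor 0 members passed it. Myl2 had -2.16 ± 0.15 (adjusted p = 0.0109 in limma), its brain signal being 4.28-fold the mandible and maxilla signal in WT and 4.66-fold in FoxO6-/-. Myl3 had -1.88 ± 0.26 (adjusted p = 0.0322 in limma).

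The remaining members did not pass the adjusted limit. Myh7 had -0.81 ± 0.15 (adjusted p = 0.0528 in limma), and the brain arrays were above the mandible and maxilla arrays in both genotypes. Mylpf had 0.75 ± 0.26 and Myl1 0.60 ± 0.22, with adjusted p of 0.155 and 0.173 in limma, and their ratios were larger on the FoxO6-/- arrays, at 1.14 and 0.91, than on the WT arrays, at 0.35 and 0.29. Myh1 had 0.23 ± 0.16 and Myh2 -0.05 ± 0.17, with adjusted p of 0.381 and 0.868 in limma. The 3 slow chains thus all had negative tissue differences, although the skeletal muscle markers had a median difference of 1.32 in favour of mandible and maxilla. Among the troponins, which make up the calcium switch of the thin filament, the fast forms had a median of 1.36 and the slow forms of 0.80, so the direction of the slow myosins was not shared by Tnnt1, Tnni1 and Tnnc1. The fit has 1 residual degree of freedom. Myl2 and Myl3 missed the limit when tissue was the only term. With tissue alone, the model that 3 arrays allow, Myh3 missed the limit without any 1 of the arrays and Myh4 without the FoxO6-/- brain array (2.87).

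**Figure D2:**
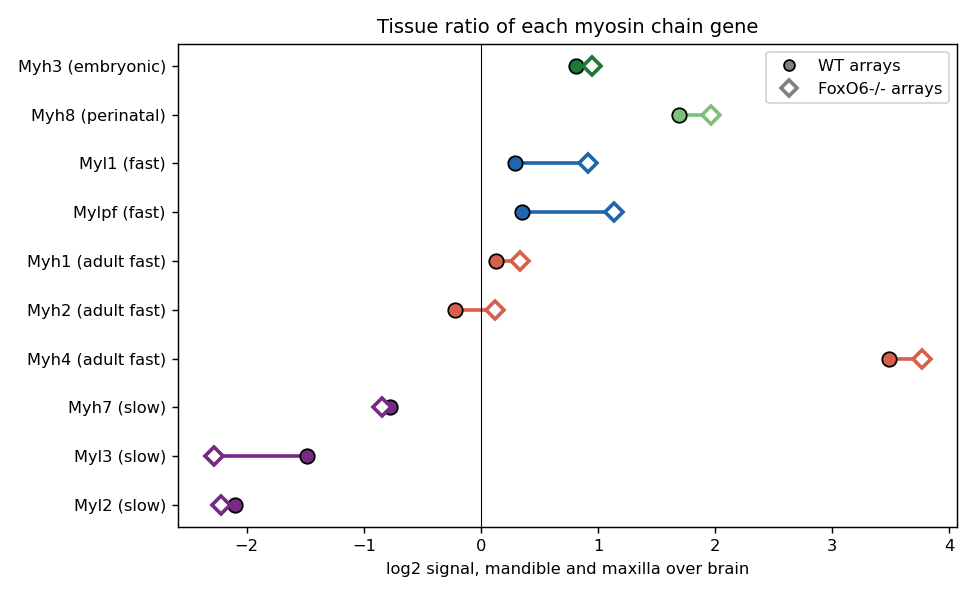
Log2 ratio of the signal in mandible and maxilla over brain (horizontal), with 1 line per gene, on the WT arrays (filled circles) and the FoxO6-/- arrays (open diamonds). Myh4 lies farthest to the right at 3.49 and 3.77, the latter against a brain signal under the floor, and the slow chains Myh7, Myl3 and Myl2 lie to the left of 0 in both genotypes.

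To ask how FoxO6 loss relates to the chains, FoxO6-/- was compared with WT within each tissue. In mandible and maxilla 7 members had a lower signal in FoxO6-/-, where 51.3% of 12186 genes did, while quantile normalization gave 10 such members and median centring 6. The adult fast and slow chains, a group of 6 formed after the values were seen, had log2 ratios from -1.43 to -0.54, with a median of -0.94. The 4 developmental heavy and fast light chains had -0.0013 to 0.45, with a median of 0.21. Myl3 had -1.43, Myl2 -1.41 and Myh4 -1.23, and these 3 members were at least 2-fold lower, where 1.69% of all genes were. For Myl3 this held for 1 of its 3 probe sets, with a FoxO6-/- signal under the floor, and without probe sets that can share probes its ratio was -0.80, which left 2 members. The FoxO6-/- signal of Myl2 was under the floor too, at 100.46 against 100.69. With low values raised to the floor, Myl2 had -1.40 and Myl3 -1.36. Myh2 had -0.65, Myh1 -0.56 and Myh7 -0.54. At a 1.5-fold limit, chosen after the values were seen, Myh2 joined them to make 4 members, where 6.5% of all genes were lower. None was at least 2-fold higher, where 0.591% were. Mylpf had 0.45, Myl1 0.38, Myh8 0.04 and Myh3 -0.0013, and after quantile normalization all 4 of these were below 0, with -0.018, -0.064, -0.39 and -0.27, while Myh3 was above 0 at 0.13 after median centring. Over the 10 members the median was -0.55, and over all genes it was -0.0082.

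In brain all 10 members had a lower signal in FoxO6-/-, where 42.7% of 12327 genes did, and 7 of 10 did when set against skeletal muscle markers. Myh4 had a log2 ratio of -1.51 and Myl2 -1.28, and these 2 were at least 2-fold lower, where 2.03% of all genes were, while 0 members were 2-fold higher, where 1.13% were. The FoxO6-/- brain signal of Myh4 was under the floor, and with low values raised to the floor its ratio was -0.74, which is not 2-fold. Myh2 had -0.99, Myh1 -0.76, Myl3 -0.63 and Myh7 -0.47, so that 5 members passed the 1.5-fold limit, where 6.25% of all genes did. The developmental heavy chains and fast light chains lay closer to 0, between -0.33 for Mylpf and -0.15 for Myh3. The 9 skeletal muscle markers had a median of -0.31 on the same arrays, against 0.02 in the other tissue. Set against the brain median of these markers, an alternative added after the data were seen, Myh3, Myh8 and Myl1 were above 0 in brain with 0.17, 0.09 and 0.07, and Mylpf had -0.02. On that scale Myh4 had -1.20, Myl2 -0.97, Myh2 -0.68, Myh1 -0.45, Myl3 -0.32 and Myh7 -0.15, so that 1 member was at least 2-fold lower.

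As deposited, 7 members had a lower signal in both tissues, where 23.9% of 11494 genes did, while quantile normalization gave 10 and median centring 6. Myh4 and Myl2 were at least 2-fold lower in both, where 0.122% (14 genes) were, but in brain Myh4 was not with low values raised to the floor (-0.74), nor was Myl2 when set against skeletal muscle markers (-0.97). The FoxO6-/- mandible and maxilla signal of Myl2 was also under the floor. The 2 tissues use separate pairs of arrays. The 6 adult fast and slow chains, grouped after their values were seen, were below 0 in both tissues under the alternatives that measured them. These alternatives reuse the same 1 array per group, and several leave a ratio unchanged, so they are not independent checks. In limma over both tissues, with tissue as a term, 0 of the 10 members and 0 of 12569 genes passed the adjusted limit (0%), and 6 members were lower at an unadjusted p under 0.05, where 2.42% of all genes were, and 0 were higher, where 2.26% were. These 6 are Myh4 with -1.37 ± 0.16 (SE), Myl2 with -1.34 ± 0.15, Myl3 with -1.03 ± 0.26, Myh2 with -0.82 ± 0.17, Myh1 with -0.66 ± 0.16 and Myh7 with -0.50 ± 0.15. All 6 had an adjusted p of 0.902 in limma, the smallest of any gene. In this fit the 2 tissues stand in for replicates, so a difference between tissues counts as error. Its SE and p therefore do not measure variation between animals or pools.

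**Figure D3:**
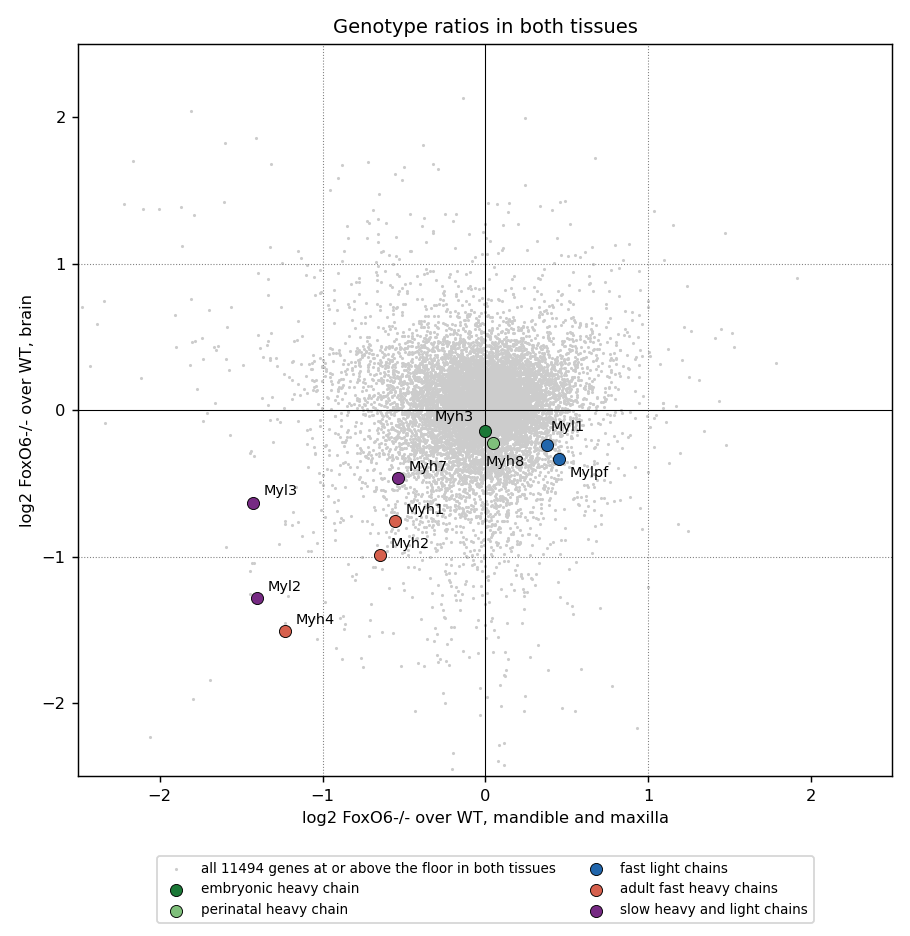
Log2 ratio of FoxO6-/- over WT in mandible and maxilla (horizontal) and in brain (vertical). Grey points are the 11494 genes measured in both tissues, of which 37 lie outside the axes, coloured points are the 10 myosin chain genes, and dotted lines mark 2-fold. Myh4 and Myl2 lie beyond 2-fold in both tissues. In FoxO6-/- the Myh4 brain signal and the Myl2 mandible and maxilla signal were under the floor. The embryonic, perinatal and fast light chains lie near the centre.

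Markers of other tissues moved on the same arrays. In mandible and maxilla all 6 cartilage markers and all 7 measured neuron markers were dimmer on the FoxO6-/- array, with median log2 ratios of -0.88 and -0.94. In brain 0 of 6 and 0 of 8 were, with medians of 0.87 and 0.35. Of all genes 51.3% were dimmer in mandible and maxilla and 42.7% in brain. The summed cartilage signal was 34630 and 20419 in WT and FoxO6-/- mandible and maxilla and 23042 and 40066 in brain. Markers of bone, epithelium, smooth muscle and tendon had medians of 0.17, 0.34, -0.24 and 0.16 in mandible and maxilla, and 0.12, 0.46, -0.30 and -0.05 in brain. The cartilage and neuron lists had opposite signs in the tissues. The part of dissection, of the 3' to 5' ratios and of the age of the pools in the myosin ratios was not tested.

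Other myosin genes were mostly those of smooth muscle and of cells in general. Myl4, the embryonic and atrial essential light chain, had signals of 11648 and 12831 in WT and FoxO6-/- mandible and maxilla and 4709 and 3587 in brain, with log2 ratios of FoxO6-/- over WT of 0.14 and -0.39. The myosin genes of cells in general had ratios of -0.13 and 0.20 for Myh10, 0.11 and 0.02 for Myh9, 0.09 and -0.05 for Myl12a and 0.08 and 0.19 for Myl12b, first in mandible and maxilla, then in brain. Of the smooth muscle forms, Myh11 had -0.19 and -0.74 and Myl9 -0.05 and 0.06, and the myosin kinase gene Mylk had -0.23 and 0.04. Myh14 had -0.73 and 0.40. Mylk3, a kinase of the heart form, had -0.78 in mandible and maxilla, and Myl6 had -0.03 and -1.90, with 1 brain signal under the floor. The other genes of this list, Myh6, Myh7b, Myl6b, Myl7, Myl10 and Mylk2, were below the floor. Of the 10 listed genes in the tissue fit 2 were called higher in mandible and maxilla, against 6.48% of all genes. The list had median genotype ratios of -0.05 in mandible and maxilla and 0.03 in brain.

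Partners of myosin in the sarcomere differed widely in their ratios. Mybpc2, the fast form of myosin-binding protein C, had 1546 in WT and 668 in FoxO6-/- mandible and maxilla. In brain it had 201 and 83.1, the last under the floor, and its log2 ratios were -1.21 and -1.27. It was the member of the thick filament list with the lowest ratio in mandible and maxilla, followed by Trim63, a ubiquitin ligase of muscle, with -0.32, while the myosin chaperone Unc45b had -0.05 and Hsp90aa1 0.09. Of 12 measured genes in that list 11 had a lower signal in mandible and maxilla, where 51.3% of all genes did, with a median of -0.17. In brain 10 did, where 42.7% of all genes did, with a median of -0.38. In the thin filament and Z-disc list, Myoz3 had -1.01 in mandible and maxilla, with a FoxO6-/- signal of 79.6, under the floor. Actn3, the alpha-actinin of fast fibres, had -0.88 there, while Nebl had 0.22 and Acta1 0.33. In this list 19 of 24 genes had a lower signal in mandible and maxilla, with a median of -0.24, and 19 of 22 in brain, with a median of -0.64. Of all genes 51.3% and 42.7% did, in the same order. The fast troponins, already abundant in fetal muscle, had ratios from -0.02 for Tnnt3 to 0.13 for Tnnc2 in mandible and maxilla, and the slow ones from -0.29 for Tnnt1 to 0.35 for Tnnc1. In brain 3 of 3 fast and 2 of 3 slow forms had a lower signal, where 42.7% of all genes did. Their medians there were -0.45 and -0.012.

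Calcium handling and energy genes of muscle had a median ratio of -0.24 over 24 genes in mandible and maxilla and of -0.55 over 23 genes in brain. Of these 17 were lower in mandible and maxilla and 22 in brain, against 51.3% and 42.7% of all genes. Ryr3, a calcium release channel, had -0.92 and the glycogen phosphorylase gene Pygm -0.70 in mandible and maxilla, while calsequestrin 2 (Casq2) had 0.13 and Fabp3 0.15. Acetylcholine receptor and membrane protein genes had medians of -0.14 over 11 genes and -0.11 over 9. Among them Musk, the receptor kinase of the neuromuscular junction, had 182 in WT and 33.6 in FoxO6-/- mandible and maxilla, the latter under the floor. Its brain signals, 9.66 in WT and 59.0 in FoxO6-/-, were also under the floor. Dok7 had a ratio of -0.36, Itga7 0.09 and Chrna1 0.14 in mandible and maxilla. In these 2 lists 18 of 24 and 6 of 10 genes were called higher in mandible and maxilla than in brain by limma, against 6.48% of all genes.

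**Figure D4:**
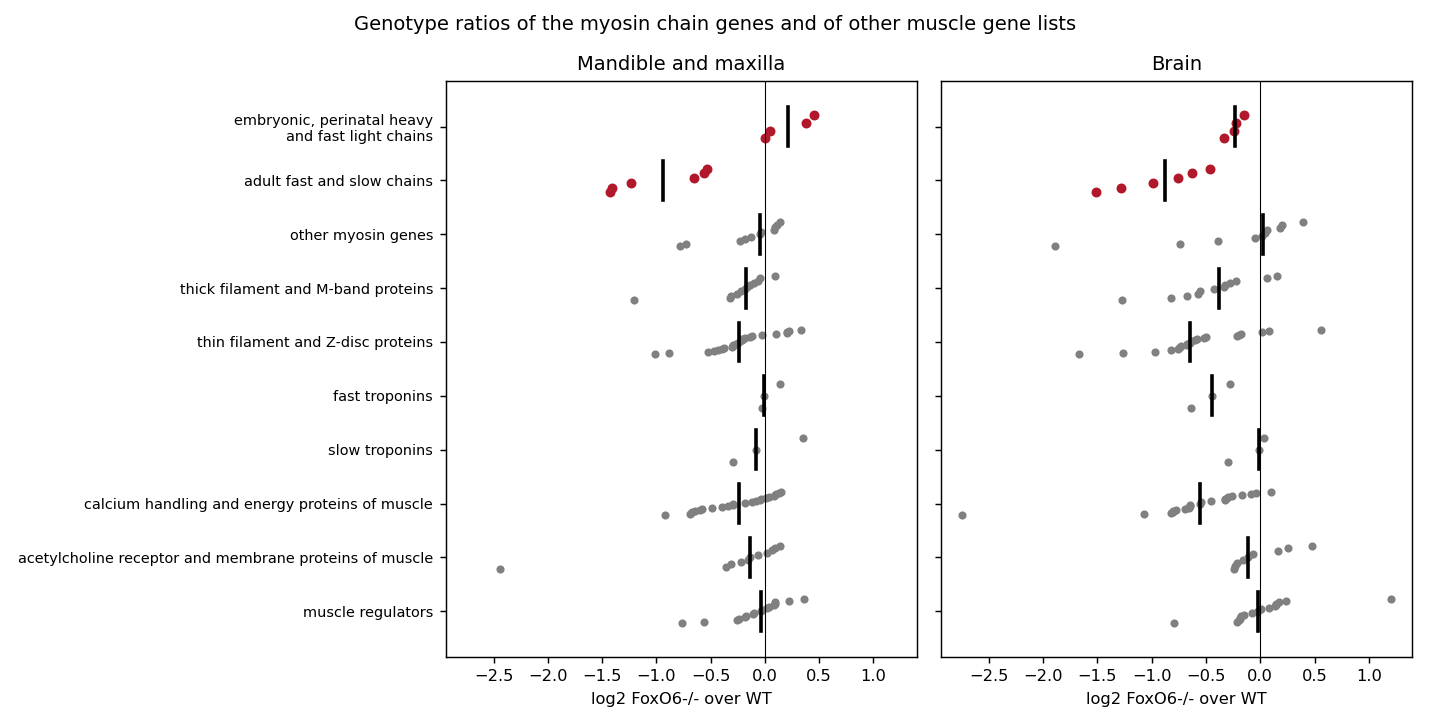
Log2 ratio of FoxO6-/- over WT (horizontal) in mandible and maxilla (left) and brain (right) for the myosin chain genes (red) and genes of 8 other lists (grey), with 1 point per gene at or above the floor and a black bar at each median. The myosin chains are drawn in 2 groups formed after their values were seen, with medians of 0.21 and -0.94 in mandible and maxilla. Over all 10 of them the median is -0.55 in each tissue, against -0.24 and -0.64 for the thin filament and Z-disc list.

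The factors that build muscle had a median ratio of -0.04 in mandible and maxilla, against -0.02 in brain. Myog, which drives differentiation, had 0.02 in mandible and maxilla and 0.0047 in brain, and Myf5 had -0.04 and -0.18. Myod1 had 0.03 and -0.79, and Myf6 0.09 and -0.20. The satellite cell gene Pax7 had 0.09 and 0.17, and the fusion genes Mymk and Mymx had -0.17 and 0.22 in mandible and maxilla. Mef2a, Mef2c and Mef2d had 0.09, -0.19 and -0.03 there, while Tbx1, a regulator of head muscle, had -0.11, Vgll2 -0.25 and Nfix, a regulator of the fetal program, -0.24. Pax3 had -0.10 there and 1.20 in brain, where its WT signal was under the floor. Sox6 and Six4, which are known to regulate fibre type genes, had -0.77 and -0.56. Prox1 had 65.4, under the floor, against 105 in WT. Msc had 0.36, and Tcf21 was below the floor. Of 17 measured regulators none was at least 2-fold apart in mandible and maxilla, where 1.69% of all genes were lower and 0.591% higher by that limit. By limma 8 of 18 were called higher in mandible and maxilla than in brain, against 6.48% of all genes.

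Over the 4 arrays the members did not share a single profile. Likeness was the Euclidean distance between log2 signals after each gene was centred on its own mean. From the members' mean profile, Myh1 lay at 0.111 and Myh2 at 0.435, whereas Myl2 lay at 2.58 and Myh4 at 3.42. Of the other genes in the fit the nearest were Pkn3 at 0.0414, Ninl, Poc1b, Lypla1, Tspan15, Slc44a3, Cpped1, Mospd3, Tob2 and Nr5a2 at 0.112. Genes that resemble the mean on 4 arrays are a description of these arrays.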

How the data were processed

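RNA was hybridized to Affymetrix mouse arrays, and the deposited values are MAS5 intensity signals on a linear scale, which the authors scaled to a trimmed mean of 500.0 on every array. The MAS5 version was not given in the sources used here. No further normalization was applied. Tissue and genotype were taken from the labels.

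Gene names of probe sets came from the annotation of the array platform, and probe sets with several genes were left out. The floor was the median signal without control probe sets. Ratios within a tissue have no test. limma (lmFit, eBayes) was run on log2-transformed signals, fitting tissue and genotype together. Named genes are the 10 members, for each list at most 4 genes among the 2 highest and 2 lowest in mandible and maxilla (cell type marker lists other than muscle are given by counts, medians or summed signals), every gene of the lists of other myosin genes and muscle regulators, and the 10 nearest profiles. Values of further genes in the text belong to marker lists. The members and the lists were chosen with earlier results of these data known. The procedure was tested on simulated arrays. Array number limits the precision. Alternatives covered scaling, floor, probe sets and model. Software was R 4.3.3, limma 3.58.1, Python 3.11.15, numpy 2.4.6 and pandas 2.3.3.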

Additional observations from a re-analysis of the deposited data

Results flagged for a closer look

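The members Myh8, Myl1 and Mylpf had a log2 ratio of FoxO6-/- over WT above 0 in mandible and maxilla and below 0 in brain, from 1 array per group in each tissue, and the difference between the tissues was not tested. Myh8 had 0.044 and -0.22, Myl1 had 0.38 and -0.24, and Mylpf had 0.45 and -0.33. After quantile normalization all 3 were below 0 in mandible and maxilla too, with -0.39, -0.064 and -0.018.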

How the results depend on the processing

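Counts and medians of the members stayed within 1.5 times, or within the spread between probe sets of a gene, in 88 of 102 alternative values. Some of these could not change, and some counts were 0 throughout. The limit also passed a shift from 7 to 10 members with a lower signal in mandible and maxilla, so the total overstates stability. With no floor, limma called 0 members higher in mandible and maxilla and 0 higher in brain, and it called 0 of all genes. With tissue as the only term 0 were higher in brain. When the floor was raised to 524, the 75th percentile, 1 member was called higher in brain, and 1 of 7 measured members was at least 2-fold lower in mandible and maxilla, 4 of 7 had a lower signal and the median was -0.0013, because Myh2, Myl2 and Myl3 were no longer measured there. In brain that floor, low values raised to the floor, and scaling on skeletal muscle markers each left 1 member at least 2-fold lower. Raising low values gave Myh4 -0.74 in brain. Leaving out each array in turn, with tissue as the only term, gave 1 to 2 members called higher in mandible and maxilla, with 1 when the FoxO6-/- brain array was left out, and 0 to 2 higher in brain, with 2 only when the WT mandible and maxilla array was left out. Over these fits Myh1 ranged from -0.15 to 0.61 and was -0.049 without the WT mandible and maxilla array and -0.15 without the FoxO6-/- brain array. Myh2 ranged from -0.54 to 0.44 and was 0.28 without the FoxO6-/- mandible and maxilla array and 0.44 without the WT brain array. Over all alternatives the adjusted p from limma ran from 0.00132 to 0.118 for Myh4, from 0.00208 to 0.128 for Myh8, from 0.0106 to 0.19 for Myh3, from 0.00263 to 0.212 for Myl2, from 0.00759 to 0.206 for Myl3 and from 0.017 to 0.297 for Myh7. Without probe sets that can share probes, Myl3 had -0.80 in mandible and maxilla. Median centring moved the median of all genes to 0.12 in mandible and maxilla and to 0.20 in brain, and the higher share of genes at least 2-fold apart went from 25.9% to 48.8% and from 35.7% to 54.2%, with 44.0% after quantile normalization in mandible and maxilla. Causes were not tested. No paired analysis was possible because each group has 1 array and no replicate numbers, beyond the tissue term that sets each FoxO6-/- array against the WT array of its tissue.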
